A study of Mus musculus with 18 samples.

Results

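A set of 10 genes was followed through the healing of the wire-injured mouse carotid artery: the collagen prolyl 4-hydroxylase subunits P4ha1, P4ha2 and P4ha3, the lysyl hydroxylases Plod1, Plod2 and Plod3, the collagen chaperone Serpinh1 (also known as HSP47), and the lysyl oxidases Lox, Loxl2 and Loxl3. They were chosen by symbol with earlier results of these data known, so their counts of calls beside all genes are a description. All 10 were found among the 35655 genes of the count table and among the 10312 genes that passed the filter on low counts. The tissue came from C57/BL6 mice of WT genotype, male and operated at 11 weeks of age, in which the left carotid was injured with a wire. The vessel wall was isolated from tissue sections by laser microdissection, with the neointima where present, and its RNA was sequenced by MACE, an assay that reads the 3′ end of transcripts. Day 0 (pre-injury) has 4 libraries, and the days after injury have 4 (day 7), 3 (day 14), 4 (day 21) and 3 (day 28). No group carried a transgene or received a drug. The study's methods name the right, uninjured carotid as a control. Whether the day 0 vessels came from uninjured mice or from the uninjured side is not stated. In 3 pairs a day 0 and a day 21 library share a number in their labels. The study calls its neointima samples pooled, without saying how many mice each holds. The p-values given here therefore measure the spread between libraries, which may in part be technical.

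As background, fibrillar collagen is made as single chains in the endoplasmic reticulum. Prolyl 4-hydroxylases add hydroxyl groups to prolines, which hold the triple helix together, and lysyl hydroxylases do the same to lysines, which later take part in crosslinks. Serpinh1 binds the folded triple helix on its way to the Golgi. Outside the cell, lysyl oxidases convert lysines of collagen and elastin to the aldehydes from which crosslinks form, and this gives the artery wall its tensile strength. In a growing neointima, smooth muscle cells and fibroblasts lay down new collagen and elastin.

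Library totals ran from 440675 to 878310 counts, with medians by day between 549633 and 742504. The contractile smooth muscle markers, which define the medial layer, were found in every day 0 library, with a summed level of 33430 to 38930 CPM (a gene's counts as a rate per library size scaled by TMM). The day 28 libraries were the least alike, with a median correlation to their own day of 0.734 to 0.768, against 0.803 to 0.871 in the libraries of the other days. Day 28 replicate 1 stood apart for several of the genes described here, and those results are given with and without it. That choice rests on the values of these same genes. Over all genes replicate 1 was the closest to its own day, at 0.768 beside 0.739 and 0.734 in replicates 2 and 3. Replicates 2 and 3 held counts for 10818 and 10674 genes, against 12350 in replicate 1. MACE yields about 1 tag per transcript whatever its length, so CPM values were not divided by length.

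P4ha3 and the lysyl oxidases moved after injury, while the other hydroxylases and Serpinh1 did not pass the test on any day against day 0. In a simulation of day 7 against day 0, only 2% of 2-fold and 36% of 4-fold changes were recovered. It changed 200 of 10312 genes, fewer than the 1161 called higher in the data, so its recovery need not hold for the 10 genes. The lack of a pass does not show that a gene was unchanged. On day 7 the confidence intervals of Plod2, Plod3 and Serpinh1 lay between -0.93 and 0.88 (log2), within a 2-fold change. Those of P4ha1, P4ha2 and Plod1 reached past it. Of the 10 genes, 3 were higher on day 7, where 11.3% of all genes tested were higher and 8.53% lower. On day 14 it was again 3 of 10, against 4.8% higher and 1.42% lower over all genes. On day 21 it was 4 of 10, against 5.92% higher and 2.93% lower. On day 28 it was 0 of 10, against 0.97% higher and 0.369% lower over all genes. In edgeR, 0 of the 10 were lower than day 0 on any day. The median log2 fold change of the 10 genes was 0.31, 0.51, 0.36 and 0.13 on days 7, 14, 21 and 28, beside 0.07, 0.05, 0.07 and -0.01 over all genes tested. An F test of any difference among the days called 4 of the 10 genes (P4ha3, Lox, Loxl2 and Loxl3), against 18% of all genes. Calls are at an adjusted p under 0.05 in edgeR's quasi-likelihood test, with Benjamini-Hochberg adjustment over all genes tested. At an unadjusted p under 0.05, 2 of the 10 (P4ha3 and Loxl3) were above day 0 and 1 (Plod3) was below it on day 28, where 8.06% of all genes were above and 6.69% below at that threshold. DESeq2 called 0 of the 10 on that day.

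**Figure D1:**
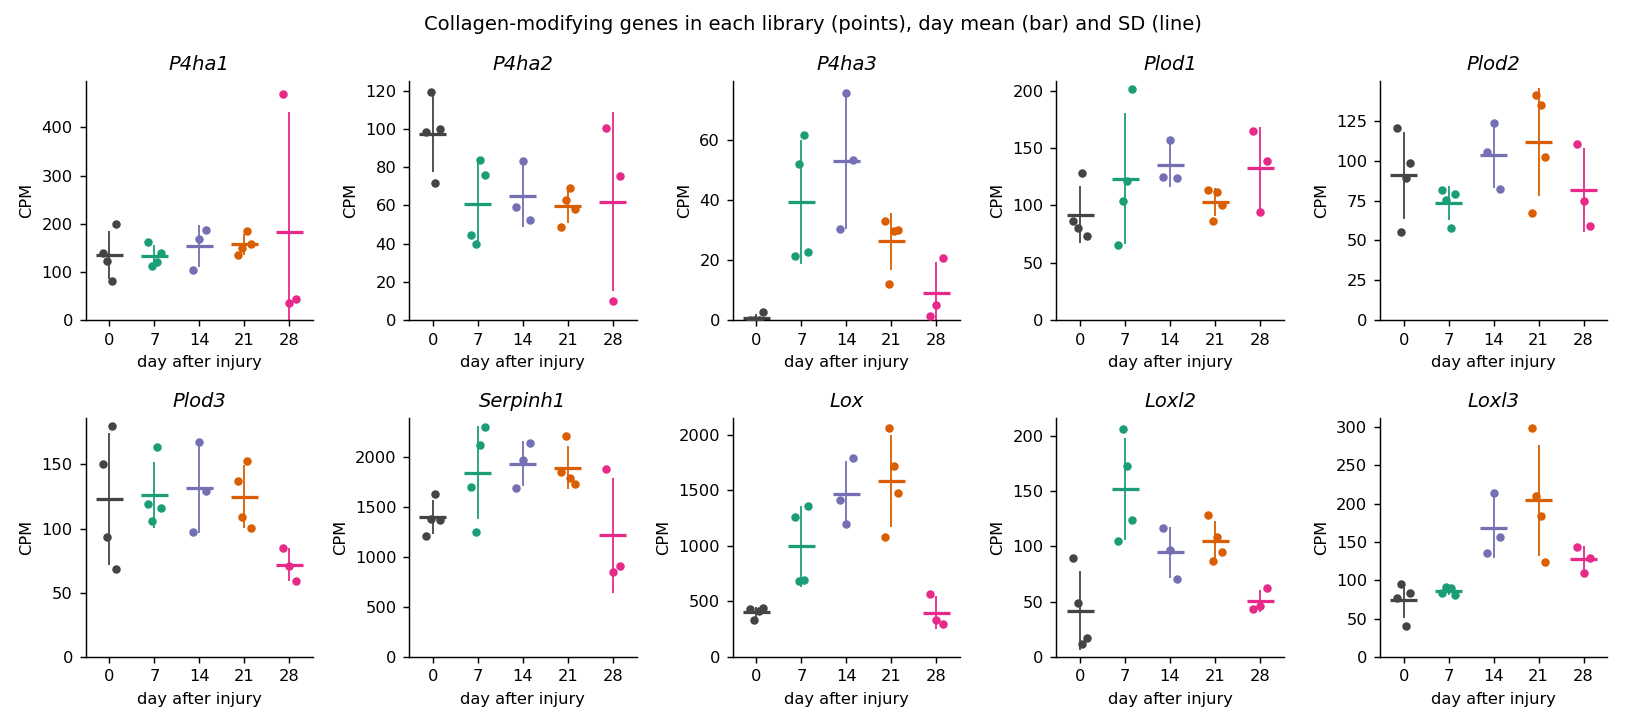
CPM of the 10 genes by day after injury, with 1 point per library, the day mean as a bar and the SD as a line. P4ha3 was near 0 in all day 0 libraries, Lox reached 1075 to 2061 CPM on day 21 and lay at 290.8 to 566 CPM on day 28, and P4ha1 had 1 day 28 library at 469.6 CPM beside others at 34.7 and 43.1 CPM.

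**Figure D2:**
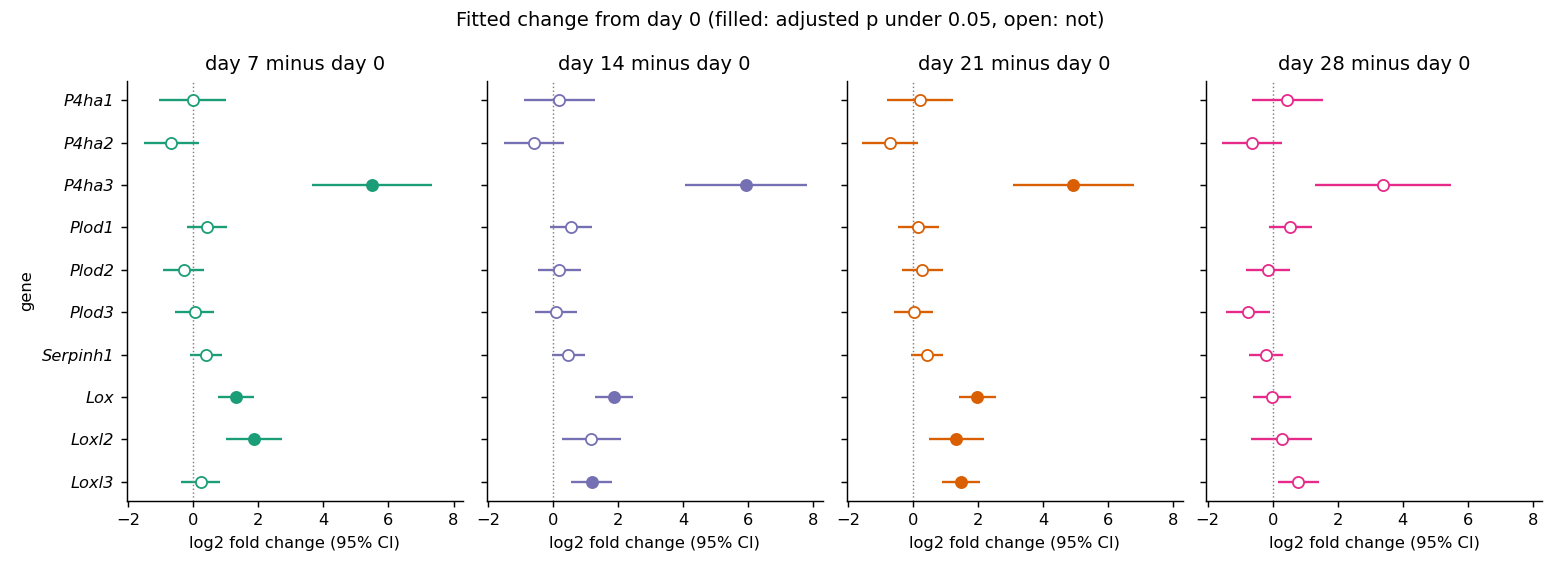
Fitted log2 fold change from day 0 for the 10 genes on each later day, with 95% confidence intervals. Filled points passed the test, which were 3, 3, 4 and 0 of 10 on days 7, 14, 21 and 28. Every point to the left of 0 is open.

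The prolyl 4-hydroxylase subunits lie on separate chromosomes of mm39 (GRCm39, GENCODE vM39 annotation, all protein coding). P4ha1 is on chromosome 10 (59159092 to 59209126, plus strand), P4ha2 on chromosome 11 (53981553 to 54022494, plus strand) and P4ha3 on chromosome 7 (99934686 to 99968907, plus strand). Each encodes an alternative catalytic alpha subunit of the same enzyme, which pairs with the shared beta subunit P4hb. Because P4ha3 passed the test on days 7, 14 and 21 and the other subunits did not, the 250 bases before the transcription start of each are shown. They were taken from RefSeq's promoter table (build GRCm38.p6), and each was found once in GRCm39 by exact match, at the coordinates given. Capitals mark the GC box GGGCGG, the hypoxia-factor core ACGTG or a CCAAT box on either strand.

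P4ha1, chr10:59158868-59159117, plus strand: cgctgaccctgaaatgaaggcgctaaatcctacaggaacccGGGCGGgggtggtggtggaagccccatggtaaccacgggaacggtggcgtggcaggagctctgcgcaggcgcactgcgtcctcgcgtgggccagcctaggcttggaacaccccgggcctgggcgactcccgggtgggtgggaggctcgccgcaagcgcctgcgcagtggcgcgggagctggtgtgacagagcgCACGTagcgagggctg
P4ha2, chr11:53991500-53991749, plus strand: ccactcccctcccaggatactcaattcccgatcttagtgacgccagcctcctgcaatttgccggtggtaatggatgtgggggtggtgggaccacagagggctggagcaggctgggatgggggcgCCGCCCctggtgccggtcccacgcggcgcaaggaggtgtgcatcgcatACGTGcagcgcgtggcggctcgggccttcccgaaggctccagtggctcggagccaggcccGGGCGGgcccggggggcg
P4ha3, chr7:99934477-99934726, plus strand: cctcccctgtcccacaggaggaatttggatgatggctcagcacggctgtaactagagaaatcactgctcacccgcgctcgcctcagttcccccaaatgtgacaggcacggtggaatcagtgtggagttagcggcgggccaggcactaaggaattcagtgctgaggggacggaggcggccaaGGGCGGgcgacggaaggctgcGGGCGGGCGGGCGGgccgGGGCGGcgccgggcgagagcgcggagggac

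The P4ha2 window lies before a RefSeq start that is 10197 bases inside the annotated gene, while those of P4ha1 and P4ha3 lie within 26 and 41 bases of the annotated first base. GC content was 69.6% in P4ha1, 70.0% in P4ha2 and 67.2% in P4ha3, beside a median of 52.4% over 32851 mouse promoters of the same length. In all, 5 motifs were searched as exact letters on both strands, and matches may overlap each other: ACGTG, which is the core bound by hypoxia-inducible factors, GGGCGG, which is a GC box, the CCAAT box, the TATAAA box and the heat shock element core GAANNTTC. They occurred in 16.6%, 32.7%, 33.8%, 12.4% and 6.69% of all promoters. ACGTG was found once each in P4ha1 (position -16 from the start) and P4ha2 (-78) and not in P4ha3. GGGCGG was found once in P4ha1, at 2 places in P4ha2 and at 5 in P4ha3, where 3 of the 5 overlap. The last 3 of these motifs had no match in these windows. Of the other members with an entry (6 of 10 in all), Plod3 and Serpinh1 held ACGTG and Plod1 did not. Plod2, Lox, Loxl2 and Loxl3 had no entry. A match describes these letters only.

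P4ha3 had 0, 0, 0 and 2 counts in the day 0 libraries, or 0 to 2.62 CPM. On day 7 it stood at 21.4, 52.1, 61.8 and 22.6 CPM, from 12 to 31 counts. On day 14 it stood at 30.4, 75.9 and 53.5 CPM. All libraries of both days were above all day 0 libraries. On day 21 the values were 33.1, 12.1, 29.6 and 30.2 CPM, and on day 28 they were 1.44, 4.96 and 20.8 CPM, the last from 13 counts and the others from 1 and 3. Day 21 was still fully above day 0, and day 28 overlapped it.

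Summed over libraries, P4ha3 had 2 counts on day 0 against 86 on day 7, a ratio of 56.3 per unit of library size (95% exact binomial interval 15.1 to 472). The ratio was 77.2 on day 14 (20.8 to 646), 40 on day 21 (10.6 to 338) and 13 on day 28 (3.08 to 116). These intervals cover counting error only. In edgeR P4ha3 was called on day 7 (adjusted p = 8.29e-05), day 14 (0.000176) and day 21 (0.00108), and missed the threshold on day 28 (adjusted p = 0.101). The fitted log2 fold changes were 5.50 ± 0.90 (SE), 5.93 ± 0.92, 4.93 ± 0.91 and 3.39 ± 1.01, and with so few day 0 counts they depend on the prior count. Without day 28 replicate 1, in which P4ha3 had a single count, the day 28 change was 3.92 (adjusted p = 0.0226). Between later days P4ha3 passed no test: day 14 minus day 7 was 0.43 ± 0.65, day 21 minus day 7 was -0.57 ± 0.62 and day 28 minus day 21 was -1.54 ± 0.75 (adjusted p = 0.927, 0.69 and 0.329).

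P4ha1, the widely expressed alpha subunit, had 138.5, 122, 80.5 and 199.5 CPM on day 0. It lay between 113 and 162 CPM on day 7, between 104 and 188 CPM on day 14 and between 135 and 186 CPM on day 21, within the range of day 0. Its log2 fold changes on these days were -0.02 (95% interval -1.04 to 1.01), 0.19 (-0.91 to 1.28) and 0.21 (-0.81 to 1.24), with adjusted p of 0.987, 0.928 and 0.864. On day 28 the libraries held 469.6, 34.7 and 43.1 CPM, from 327, 21 and 27 counts. The first was above every other library of the study and the other two were below every other library. The day 28 change of 0.44 ± 0.53 (adjusted p = 0.746) thus averages values on both sides of day 0. Without day 28 replicate 1 the change was -1.78 against day 0 (adjusted p = 0.0112) and -1.98 against day 21 (adjusted p = 0.00856). In that fit 2 of the 10 genes differed between day 28 and day 0, P4ha3 higher and P4ha1 lower, beside 1.77% of all genes higher and 2.66% lower.

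P4ha2, a second alpha subunit, had 98.3, 119.5, 71.5 and 99.7 CPM on day 0. It had 44.5, 39.5, 83.7 and 75.9 CPM on day 7, 59.2, 82.9 and 52.2 CPM on day 14, and 48.5, 62.6, 69.1 and 58.2 CPM on day 21. The day 21 libraries all lay below the day 0 libraries, and those of days 7 and 14 overlapped them. On day 28 it had 100.5, 9.92 and 75.1 CPM, the lowest from 6 counts. The log2 changes were -0.68 ± 0.41, -0.59 ± 0.45, -0.71 ± 0.41 and -0.65 ± 0.45 on the 4 days, and none passed the test (adjusted p = 0.295, 0.599, 0.336 and 0.524). The day 21 interval reached from -1.56 to 0.14.

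As a share of the counts of the 3 subunit genes, P4ha1 held 57.0% ± 6.92 (SD, n = 4), P4ha2 42.8% ± 7.30 and P4ha3 0.217% ± 0.435 on day 0. On day 7 P4ha3 held 16.9% ± 8.66 (n = 4), on day 14 19.0% ± 3.77 (n = 3) and on day 21 10.8% ± 4.15 (n = 4). On day 28 it held 8.40% ± 7.48 (n = 3), of which day 28 replicate 1 gave 0.251%. The share of P4ha2 was 25.6% ± 7.14 on day 7, 24.5% ± 6.43 on day 14 and 24.6% ± 2.38 on day 21, and its libraries on these days all lay below those of day 0. The share of P4ha1 was 57.5%, 56.4%, 64.6% and 61.1% on the 4 days. In the exact permutation test (two-sided), P4ha3 and P4ha2 on days 7 and 21, and P4ha3 on day 14, reached the smallest p that these group sizes allow, 0.0286. After adjustment over the 36 share tests their p was 0.171, and none of the 36 passed. With p no smaller than 0.0286, a test could pass after adjustment only if most of the 36 reached that value. The lack of a pass thus does not decide whether the shares changed.

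**Figure D3:**
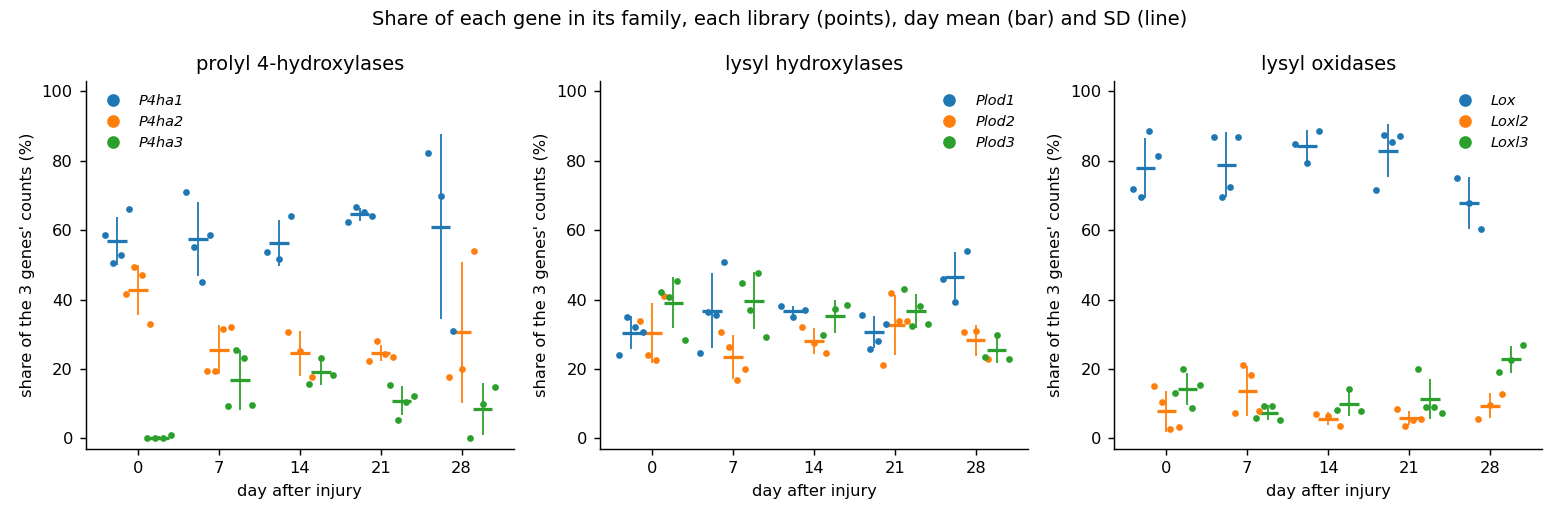
Share of each gene in the summed counts of its family of 3 genes, in percent, by day after injury, with 1 point per library, the day mean as a bar and the SD as a line. P4ha3 held 0.217% of the prolyl 4-hydroxylase counts on day 0 and 19.0% on day 14, and P4ha2 held 42.8% and 24.5%. These differences did not pass the adjusted permutation test, in which these group sizes leave little room for a pass.

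The lysyl hydroxylases are Plod1 on chromosome 4 (147991574 to 148021356, minus strand), Plod2 on chromosome 9 (92424119 to 92490494, plus strand) and Plod3 on chromosome 5 (137015827 to 137025502, plus strand). Plod2 is the form that hydroxylates the telopeptide lysines of fibrillar collagen, Plod1 acts on the triple helix, and Plod3 also adds sugars to hydroxylysine. No Plod gene passed the test in any of the 7 comparisons between days. Day means of Plod1 ran from 92.0 CPM ± 24.7 (SD, n = 4) on day 0 to 135 CPM ± 18.9 (n = 3) on day 14. Those of Plod2 ran from 73.6 CPM ± 10.8 (n = 4) on day 7 to 111.5 CPM ± 33.9 (n = 4) on day 21. Those of Plod3 ran from 71.7 CPM ± 12.8 (n = 3) on day 28 to 131.5 CPM ± 35.1 (n = 3) on day 14.

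Among the days after injury, day 28 held the largest departure of Plod3. It had 150.4, 93.3, 180.4 and 68.2 CPM on day 0 and 84.7, 71.1 and 59.1 CPM on day 28, so that the groups overlapped. Its log2 change was -0.77 ± 0.33 against day 0 (adjusted p = 0.256) and -0.80 ± 0.33 against day 21 (adjusted p = 0.234). For Plod1 and Plod2 on days 7, 14 and 21 the 95% intervals lay between -0.93 and 1.21. The lysyl hydroxylase shares on day 0 were 30.5% ± 4.62 for Plod1, 30.3% ± 8.68 for Plod2 and 39.2% ± 7.41 for Plod3 (n = 4). On day 28 they were 46.4% ± 7.38, 28.2% ± 4.55 and 25.4% ± 3.71 (n = 3), with adjusted p of 0.171, 0.918 and 0.257 in the exact permutation test. The Plod1 share was higher in all day 28 libraries than in all day 0 libraries. Its raw p of 0.0286 in that test was the smallest that these group sizes allow. The lack of a pass thus does not decide whether the Plod1 share changed. A single exon of Znhit1 overlaps up to 315 bases of Plod3 exons, and a single exon of B430319G15Rik up to 503 bases of Plod2 exons. Both overlaps are on the opposite strand and outside the last exon. Whether the counting used the strand is not stated.

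Serpinh1 is on chromosome 7 (98994220 to 99005076, minus strand) and encodes a chaperone specific to collagen. It had 1212, 1378, 1631 and 1369 CPM on day 0 and 1693, 1251, 2119 and 2294 CPM on day 7. It had 1689, 1964 and 2136 CPM on day 14 and 1851, 2202, 1784 and 1726 CPM on day 21. All libraries of days 14 and 21 lay above all of day 0, and those of day 7 overlapped. The log2 changes were 0.40 ± 0.23, 0.47 ± 0.25 and 0.44 ± 0.23 on days 7, 14 and 21, and none passed the test (adjusted p = 0.276, 0.375 and 0.288). On day 28 the libraries had 1874, 852 and 911 CPM, with replicate 1 above all of day 0 and the others below all of it. Day 28 minus day 21 was -0.64 ± 0.26 (adjusted p = 0.227), and without day 28 replicate 1 it was -1.08 (adjusted p = 0.0245).

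Lox, the founding lysyl oxidase, is on chromosome 18 (52649136 to 52663110, minus strand). On day 0 it had 429, 329.9, 408 and 436 CPM. It had 1255, 679, 688 and 1361 CPM on day 7, 1409, 1196 and 1786 CPM on day 14, and 1075, 2061, 1717 and 1475 CPM on day 21. Every library of these days was above every day 0 library. On day 28 it had 566, 329.1 and 290.8 CPM, which spans the day 0 values. The order of the day means was day 21 (1582 CPM), day 14 (1464), day 7 (996), day 0 (401) and day 28 (395).

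The log2 changes of Lox against day 0 were 1.31 ± 0.27 on day 7 (adjusted p = 0.000873), 1.87 ± 0.29 on day 14 (0.000166) and 1.98 ± 0.27 on day 21 (4.06e-05). On day 28 the change was -0.02 with a 95% interval from -0.61 to 0.57 (adjusted p = 0.991). Neither day 14 minus day 7 (0.56 ± 0.28, adjusted p = 0.507) nor day 21 minus day 7 (0.67 ± 0.26, adjusted p = 0.138) passed the test. Day 28 minus day 21 fell by 2.00 ± 0.30 (adjusted p = 0.00128), and all 3 day 28 libraries lay below all 4 of day 21. Lox was the 1 gene of the 10 that was lower in this comparison, in which 0.572% of all genes were lower and 0.107% higher. Without day 28 replicate 1 there were 3, with P4ha1 and Serpinh1 as the others, and 3.12% of all genes were then lower and 0.664% higher. Between days 14 and 7 edgeR and DESeq2 each called 0 of the 10, where edgeR called 1.33% of all genes higher and 0.33% lower. At an unadjusted p under 0.05, 1 of the 10 (Loxl3) was above day 7, as were 6.61% of all genes, with 4.05% below. The called changes of Lox kept their call in all alternatives of filter, tool and left-out library and under RLE and upper-quartile normalization.

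Loxl2 is on chromosome 14 (69846209 to 69933283, plus strand) and crosslinks collagen IV as well as fibrillar collagen. On day 0 it had 89.3, 49.0, 11.9 and 17.1 CPM, from 60, 41, 8 and 13 counts, a wide spread. On day 7 it had 105, 206.7, 173 and 124 CPM, all above day 0. It had 117, 97.1 and 70.5 CPM on day 14, 129, 86.8, 108.5 and 95.4 CPM on day 21, and 43.1, 46.3 and 62.3 CPM on day 28. On days 14 and 21 the overlap with day 0 came from the library at 89.3 CPM alone, and on day 28 also from the one at 49.0 CPM.

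Loxl2 was higher on day 7 by 1.86 ± 0.42 (log2, adjusted p = 0.00194) and on day 21 by 1.33 ± 0.41 (adjusted p = 0.0441). Day 14 missed the threshold (1.18 ± 0.44, adjusted p = 0.129), as did day 28 (0.27 ± 0.45, adjusted p = 0.827). The day 21 call was fragile: it was lost in 11 of the 18 fits that left out 1 library, with adjusted p between 0.0508 and 0.13. Those libraries were day 0 replicates 2, 3 and 4, day 7 replicates 1, 2 and 3, day 14 replicate 3 and day 21 replicates 1 to 4. Day 14 became a call without day 0 replicate 1 (1.84, adjusted p = 0.009). The direct differences were -0.69 ± 0.43 for day 14 minus day 7, -0.53 ± 0.40 for day 21 minus day 7 and -1.06 ± 0.45 for day 28 minus day 21 (adjusted p = 0.674, 0.514 and 0.264). The means were in the order day 7 (152 CPM), day 21 (105), day 14 (94.8), day 28 (50.6) and day 0 (41.8). Of its neighbours, days 7 and 21 and days 28 and 0 did not pass the test against each other, and days 21 and 14 and days 14 and 28 were not compared.

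Loxl3 is on chromosome 6 (83011152 to 83029543, plus strand) and is a close relative of Loxl2. It had 77.4, 94.4, 40.2 and 82.7 CPM on day 0 and 83.7, 91.7, 89.7 and 80.7 CPM on day 7, overlapping and nearly equal. It had 136, 213.5 and 157 CPM on day 14, 299.3, 209.9, 184 and 123 CPM on day 21, and 144, 109 and 129 CPM on day 28. All libraries of these 3 days were above all of day 0.

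Loxl3 was higher on day 14 by 1.19 ± 0.30 (log2, adjusted p = 0.0173) and on day 21 by 1.47 ± 0.29 (adjusted p = 0.00192). It was 0.22 ± 0.29 higher on day 7 (adjusted p = 0.675) and 0.79 ± 0.31 higher on day 28 (adjusted p = 0.217), neither of which passed. Day 21 minus day 7 was 1.25 ± 0.29 (adjusted p = 0.0074), with no overlap of libraries. Loxl3 was the 1 gene of the 10 called in that comparison, where 4.03% of all genes were higher and 3.23% lower. The day 14 call was lost without day 0 replicate 3 (0.99, adjusted p = 0.0617) and without day 14 replicate 2 (0.98, adjusted p = 0.175). On day 7 Loxl2 was called and Loxl3 was not, and on day 14 the reverse held, but the difference between the genes was not tested.

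A single exon of R3hcc1 overlaps up to 943 bases of Loxl2 exons, and a single exon of Htra2 up to 889 bases of Loxl3 exons. Both genes lie on the opposite strand. Each has an exon that reaches the last exon of Loxl2 or Loxl3, where the length of overlap was not measured. Since a 3′ end assay reads this part of a transcript and the use of strand is not stated, reads could have been shared. R3hcc1 had a log2 change of -0.69 on day 7 and -0.42 on day 21 (adjusted p = 0.553 and 0.791). Htra2 had -0.07 on day 14 and 0.23 on day 21 (adjusted p = 0.966 and 0.782). Neither passed the test in any comparison. A single exon of Gm41724 overlaps up to 30 bases of Lox exons, outside the last exon of Lox.

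Within the lysyl oxidases, Lox held 77.9% ± 8.76 (SD, n = 4) of the counts of the 3 genes on day 0, and 78.9%, 84.3%, 82.9% and 67.8% on days 7, 14, 21 and 28. Loxl2 held 7.78% ± 5.97 on day 0 and 13.7% ± 7.08 on day 7. Loxl3 held 14.3% ± 4.69 on day 0, 7.44% ± 2.28 on day 7 and 22.8% ± 3.88 on day 28. No difference from day 0 passed, with adjusted p of 0.257 for Loxl3 on days 7 and 28 in the exact permutation test.

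The collagens on which these enzymes act rose as well. Of the fibrillar collagens and elastin, 7, 8, 7 and 0 of 8 were higher on days 7, 14, 21 and 28, with median log2 changes of 1.02, 1.99, 2.25 and 0.24. Between days 28 and 21, 5 of 8 were lower. Col1a1 rose by 1.45 ± 0.26 on day 7, 2.19 ± 0.28 on day 14 and 2.84 ± 0.28 on day 21 (adjusted p = 0.00027, 1.99e-05 and 4.05e-07). Col1a2 rose by 0.79, 1.85 and 2.35, and Col3a1 by 0.63, 1.64 and 1.71. For each gene the ratio of its count to the summed count of Col1a1, Col1a2 and Col3a1 was therefore compared between days, on the log2 scale with 0.5 added to the count of the gene.

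Per collagen count, the mean log2 differences of P4ha1, P4ha2, Plod1, Plod2, Plod3 and Serpinh1 from day 0 lay between -2.52 (P4ha2) and -1.36 (Plod1) on day 14. On day 21 they lay between -3.10 (P4ha2) and -1.98 (Serpinh1). These 6 genes, whose CPM passed no test, thus had lower values relative to collagen on both days. Lox stood at 0.19 (day 7), -0.08 (day 14) and -0.47 (day 21), and the adjusted p was 0.632 for the first of these, 0.321 for the last and larger for day 14. P4ha3 was higher by 4.10, 3.69 and 2.23 log2 units, which depends on the 0.5 added. Loxl2 stood at 1.17, -0.37 and -0.69 on the 3 days, and Loxl3 at -0.75, -0.71 and -0.96. None of the 40 ratios passed the exact permutation test after adjustment (smallest adjusted p 0.0816), while 14 reached a raw p of 0.0286, the smallest possible. Most of the 40 would have had to reach that value for any to pass.

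An edgeR fit with the collagen count as library size, chosen after those results were seen, called P4ha1, P4ha2, Plod1, Plod2, Plod3 and Serpinh1 lower on days 14 and 21. It also called P4ha2, Plod2 and Plod3 lower on day 7, and Loxl2 (-0.94, adjusted p = 0.0461) and Loxl3 (-0.97, adjusted p = 0.014) lower on day 21. P4ha3 was called higher on days 7, 14 and 21 (adjusted p = 0.000778, 0.00142 and 0.0188). In that fit 33.6% of all genes were lower on day 7, 66.1% on day 14 and 79.6% on day 21, while 5.07%, 1.9% and 1.4% were higher, and the median gene moved by -0.999, -1.88 and -2.33. The lower ratio was thus shared with most genes measured and is not particular to the hydroxylases or to Serpinh1. Lox stood at 0.27, -0.02 and -0.37 in that fit, with adjusted p of 0.568, 0.961 and 0.357.

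**Figure D4:**
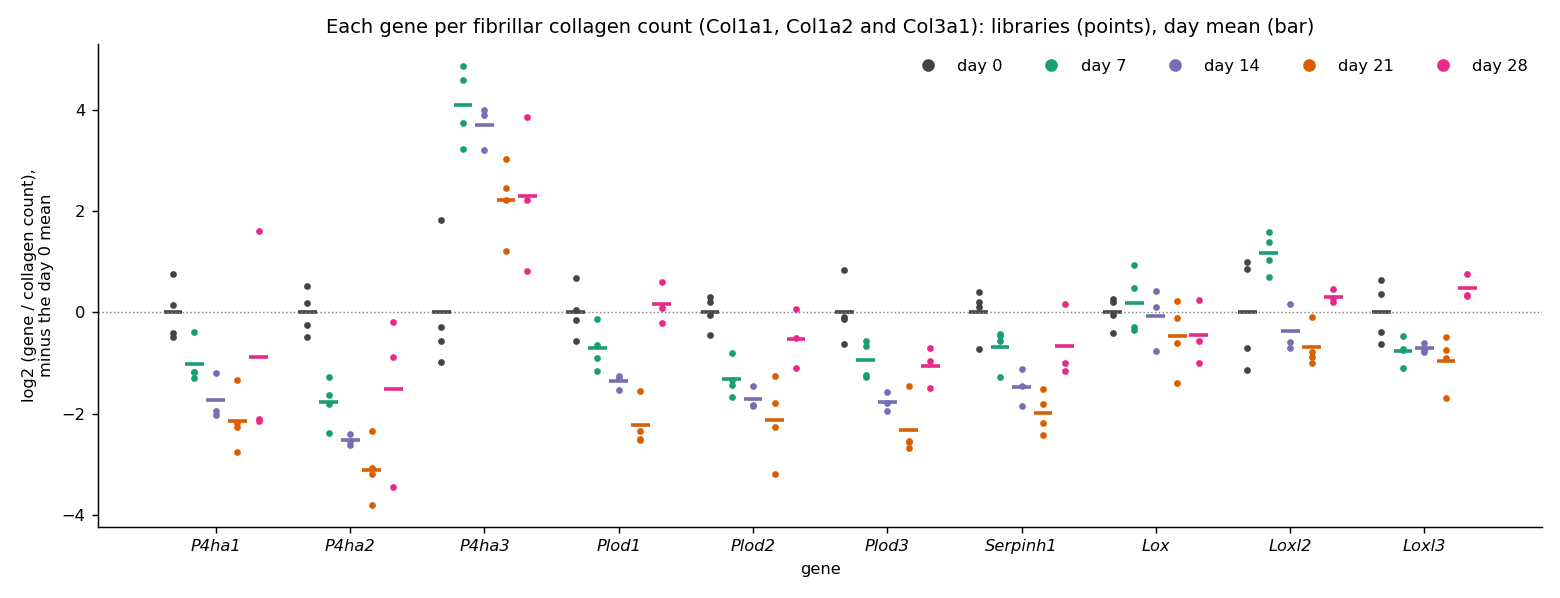
Log2 ratio of each gene's count to the summed count of Col1a1, Col1a2 and Col3a1, less the day 0 mean, by gene and day, with 1 point per library and the day mean as a bar. Means of P4ha1, P4ha2, Plod1, Plod2, Plod3 and Serpinh1 lay at -1.98 to -3.10 on day 21, and that of Lox at -0.47. The same scale put the median of all genes at -2.33 in the edgeR fit.

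Other genes of collagen processing were followed as well. Of 24 listed genes 19 were tested. The numbers higher and lower were 2 and 2 on day 7, then 4 and 1, then 6 and 0, and 0 and 0 on day 28, with median log2 changes of 0.36, 0.51, 0.79 and -0.23. Over all genes, 11.3% were higher and 8.53% lower on day 7, then 4.8% and 1.42%, then 5.92% and 2.93%, and 0.97% and 0.369% on day 28. The day 7 numbers were thus near the shares over all genes. The 3 genes with the smallest p were Bmp1, Pcolce and Tmem38b. Bmp1, the protease that removes the C-propeptide of procollagen, rose by 1.49 ± 0.28 on day 14 and 1.21 ± 0.26 on day 21 (adjusted p = 0.00141 and 0.00421). Pcolce, which enhances that cleavage, rose by 1.21, 1.63 and 1.47 on days 7, 14 and 21 (adjusted p = 0.00732, 0.00324 and 0.00409). Tmem38b, a potassium channel of the endoplasmic reticulum, fell by 2.04 on day 7 (adjusted p = 0.00148). P4hb, the shared partner of the P4ha subunits, was 0.47 ± 0.18 higher on day 7 and did not pass (adjusted p = 0.0681).

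Of 10 general folding genes of the endoplasmic reticulum, 1 was higher on day 7 and 0 on the other days, with medians of 0.48, 0.35, 0.39 and -0.14 on the 4 days. That gene was Pdia6 (1.22 ± 0.28, adjusted p = 0.00294). Over all genes, 11.3%, 4.8%, 5.92% and 0.97% were higher on the 4 days, which also stands beside the hypoxia and TGF-beta lists below. The 1 of 10 on day 7 was thus near the share over all genes. Hsp90b1 (0.67, adjusted p = 0.092) and Hyou1 (-0.56, adjusted p = 0.294) did not pass on day 7. Of 12 hypoxia-response genes 8 were tested, and 2, 1, 2 and 0 were higher and none lower on the 4 days (medians 0.72, 0.28, 0.50 and 0.37). Ldha rose by 1.57, 1.09 and 1.07 on days 7, 14 and 21, Pgk1 rose by 1.11 on day 7, and Vegfa rose by 1.88 on day 21. Of 7 TGF-beta-response genes 2, 1, 1 and 0 were higher and none lower (medians -0.49, 0.21, -0.02 and -0.51). Cthrc1 rose by 4.53, 4.31 and 3.71 on days 7, 14 and 21 and Tgfbi by 1.86 on day 7, while Smad7 stood at -1.55 on day 7 and did not pass (adjusted p = 0.0785).

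Markers of several cell types moved along with these results. The counts below stand beside 11.3% of all genes higher and 8.53% lower on day 7, 4.8% and 1.42% on day 14, 5.92% and 2.93% on day 21, and 0.97% and 0.369% on day 28. In bulk tissue, a change in the number of cells of a type and a change in RNA per cell cannot be told apart. Contractile smooth muscle markers fell in 8 of 8 genes on day 7 and in 5 of 8 on days 14 and 21, and their summed level went from 33430 to 38930 CPM on day 0 to 1675 to 7281 CPM on day 7 and 21220 to 29530 CPM on day 28. Macrophage markers rose in 10 of 10 genes on days 7, 14 and 21 and in 3 of 10 on day 28. Their sum was 110 to 566 CPM on day 0, with Mpeg1 at 0 in all 4 libraries, and 4950 to 7324 CPM on day 7, 1384 to 3115 CPM on day 14, 1992 to 3677 CPM on day 21 and 862 to 1194 CPM on day 28. Fibroblast markers were higher in 1 of 8 and lower in 4 of 8 genes on day 7, higher in 1 and lower in 2 on day 14, and 2 and 2 on day 21, with sums of 2473 to 3616 CPM on day 0, 688 to 1978 CPM on day 7 and 2834 to 5165 CPM on day 21. Of 6 chondrocyte markers 5 were tested, and 3, 3, 5 and 2 of 5 were higher on days 7, 14, 21 and 28. Their sum was 411 to 1645 CPM on day 21, against 23.9 to 134 CPM on day 0. Col2a1 alone ranged from 0 to 859 CPM on day 21. On day 0 Col2a1 and Chad were at 0 in all libraries. Endothelial sums were 607.5 to 1101 CPM on day 0 and 636 to 2115 CPM on day 7, with 3 of 6 genes higher and 1 lower on day 7. Neutrophil markers, 3 of 4 tested, were higher in 3 of 3 on days 7 and 21. Their sums were 0 to 2.62 CPM on day 0 and 186 to 678 CPM on day 7. On day 21 the sums were 20.1, 22.2, 503 and 14.0 CPM, so that 1 library stood far above the others. Haemoglobin genes, as a sign of blood, were higher in 3 of 4 on day 7 only among the 4 comparisons with day 0, at 164 to 2328 CPM against 40.2 to 369 CPM on day 0. The part of these shifts in the rise of P4ha3, Lox, Loxl2 and Loxl3 was not tested.

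**Figure D5:**
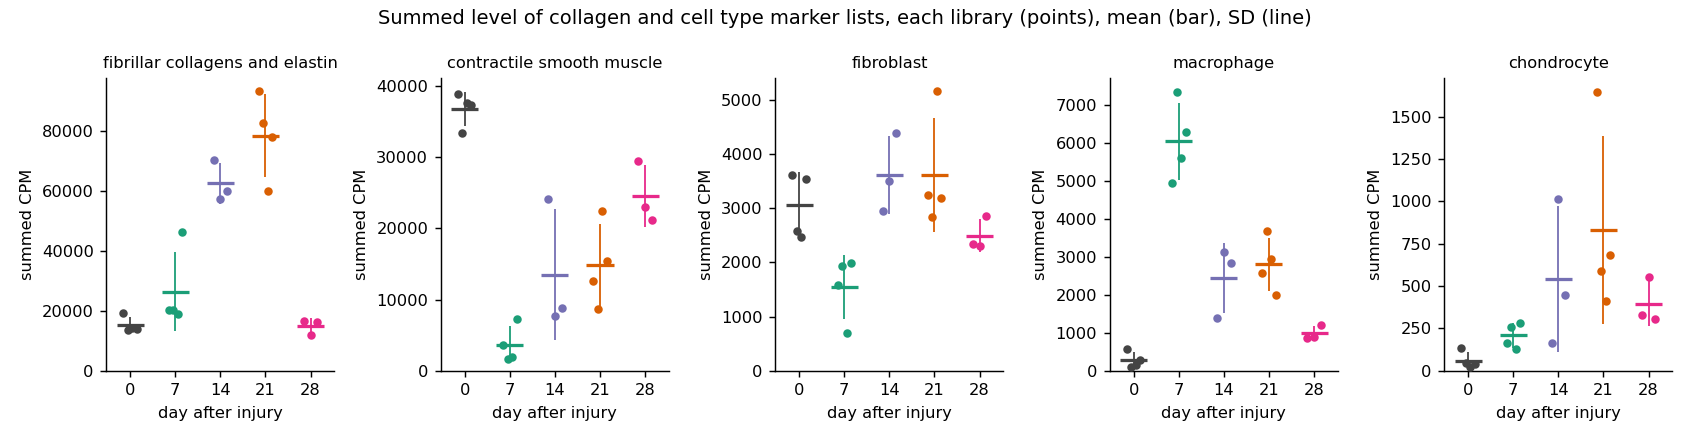
Summed CPM of the fibrillar collagens with elastin and of marker lists of 4 cell types, by day after injury, with 1 point per library, the day mean as a bar and the SD as a line. Collagens and elastin went from 13550 to 19430 CPM on day 0 to 59960 to 93400 CPM on day 21, macrophage markers were highest on day 7 and contractile smooth muscle markers lowest on day 7.

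The genes whose log2 CPM followed each member most closely over the 18 libraries are given by Pearson's r as a description, since all points share the libraries and their days. P4ha3 was most like Nid1 (0.947), a basement membrane protein, and Pik3ap1 (0.928). Lox was most like Fbn1 (0.893), the fibrillin of elastic microfibrils, and Arl15 (0.881). Loxl2 was most like 5031439G07Rik (0.907) and H2-Ab1 (0.885), an MHC class II chain, and Loxl3 like Septin8 (0.864) and Cd248 (0.856), a marker of perivascular cells. Serpinh1 was most like Gprc5b (0.865) and Kremen1 (0.858), P4ha1 like Gramd3 (0.856) and Cdk19 (0.838), and P4ha2 like Rex1bd (0.851) and Blzf1 (0.845). For Plod1 (Dchs1, 0.799, and Chtf8, 0.779), Plod2 (Amz2, 0.797, and Enpep, 0.792) and Plod3 (Eif2b2, 0.83, and Gtf3c5, 0.826) the closest genes had lower values. None of these genes encodes a collagen.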

How the data were processed

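PCR duplicates were dropped by the authors using molecular identifiers, and the authors cropped the reads, quantified them with Salmon 1.9.0 against the mm39 transcriptome and deposited expected counts (estimated counts) per gene as whole numbers, together with a normalised signal made with DESeq2 1.36.0, per the labels and the methods. The counts were used for all results, and the normalised signal in 1 alternative of the ratios. The annotation release and the use of strand are not given in the sources used here. Single-cell data of the study were not analysed here.

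Counts of 18 libraries, of 440675 to 878310 counts each, were grouped by day and fitted in R 4.3.3 with edgeR 4.0.16 (filterByExpr by day, TMM, quasi-likelihood test, 1 fit for all days), and p-values of 10312 genes were adjusted by Benjamini-Hochberg, with calls at 0.05. CPM were taken over TMM-scaled library sizes. Family shares and ratios to collagen were compared by exact permutation tests over libraries, two-sided. A simulation of day 7 against day 0, with 200 changed genes among 10312, gave 40 calls, of which 5% were false. It recovered 2% of the 2-fold changes and 36% of the 4-fold changes. A gene without a call may thus still have changed, by an amount that its confidence interval bounds. On days 7, 14 and 21 the intervals of P4ha1, P4ha2, Plod1, Plod2, Plod3 and Serpinh1 lay between -1.56 and 1.28 (log2). These intervals exclude a 4-fold change, and some of them reach past a 2-fold change.

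The 10 genes and all lists were chosen with earlier results of these data known. Named genes are the 10, the 3 genes of smallest p against day 0 in each list of related genes, and the 2 genes most correlated with each of the 10 over the libraries. P4hb, Mpeg1, Col2a1, Chad, R3hcc1 and Htra2 were named after their values were seen. Libraries of the same replicate number did not deviate together (median correlation of residuals -0.006 over 33 pairs). For the 3 pairs of a day 0 and a day 21 library that share a label number, it was -0.007 to 0.055. The correlation fitted within label numbers was 0.087. The fit has no pairing, although 3 pairs cannot exclude that vessels came from the same mice. Alternatives were RLE and upper-quartile normalization, DESeq2 1.42.0, no filter, a filter of 10 counts in 6 libraries, only the 2 days in the fit, a replicate block, a block for the shared label number (limma 3.58.1), each library left out, and collagen as library size.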

Additional observations from a re-analysis of the deposited data

Results flagged for a closer look

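Of 30 groups of 4 libraries (10 genes on days 0, 7 and 21), 2 held a library whose gap to the nearest other exceeded the limit of Dixon for 4 values, and chance alone gives about 1 in 20. Both concerned P4ha3. Day 0 replicate 4 had 2.62 CPM beside 0 in the other 3 libraries, which is a difference of 2 counts. Day 21 replicate 2 had 12.1 CPM beside 29.6 to 33.1 CPM in the others.

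In direct tests between days after injury, Loxl3 was higher on day 21 than on day 7 by 1.25 (log2), and Lox lower on day 28 than on day 21, at -1.999. The groups of day 14 and day 28 hold 3 libraries and were not examined for single outlying values, which includes P4ha1 in day 28 replicate 1.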

How the results depend on the processing

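Several called changes kept their direction and call in all alternatives run other than collagen as library size. They were those of P4ha3 and Lox on days 7, 14 and 21, of Loxl2 on day 7 and of Loxl3 on day 21. Loxl3 between days 21 and 7 and the fall of Lox between days 28 and 21 did so too. With collagen as library size P4ha3 kept its calls, while Lox on days 7, 14 and 21 and Loxl2 on day 7 had none. Loxl3 on day 21 was then called lower (-0.97, adjusted p = 0.014 in edgeR). In that fit 79.6% of all genes were lower on day 21 and the median gene stood at -2.33. It measures a level relative to collagen, so the Loxl3 call is not a fall in CPM. Loxl2 on day 21 also missed the threshold with only the 2 days in the fit (1.34, adjusted p = 0.0696), and Loxl2 on day 14 passed it without the filter (1.20, adjusted p = 0.0313) and in voom with the label number block (1.54, adjusted p = 0.0341). Without the filter P4ha3 passed on day 28 (3.38, adjusted p = 0.0347), and 1 of the 10 genes was then called on that day in place of 0. With 1 library left out, 0 to 2 of the 10 were called on day 28 and 1 to 3 between days 28 and 21, the upper values without day 28 replicate 1. Over all genes, 138 were called on day 28, and this became 363 without the filter, 366 in DESeq2, 72 with the replicate block, 71 with only the 2 days and 52 in voom with the label number block. For day 14 against day 7 the 171 calls became 392, 317 in DESeq2 and 74 with only the 2 days, and for day 28 against day 21 the 70 calls became 373 without the filter and 329 in DESeq2. Leaving out 1 library gave 63 to 480 calls on day 28 (the highest without day 28 replicate 1), 15 to 410 between days 28 and 21 (likewise), 26 to 318 between days 14 and 7 (without day 14 replicate 1 and day 7 replicate 4) and 233 to 762 on day 14 (the lowest without day 14 replicate 2), so the shares of all genes called in these comparisons are loose. The causes were not tested.

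Signs turned mostly where a change was near 0. P4ha1 on day 7 (-0.02) was 0.013 under RLE, 0.014 in DESeq2, 0.001 with the replicate block and 0.04 in voom with the label number block. The replicate block gave 0.023 for Lox on day 28 and -0.10 for P4ha1 between days 28 and 21, where voom gave -0.73, and voom gave -0.46 for P4ha1 on day 28. The replicate block changed no other direction and no call of the 10 genes. With 1 library left out, P4ha1 ranged from -0.20 to 0.22 on day 7, -1.78 to 0.93 on day 28 and -1.98 to 0.71 between days 28 and 21. Plod3 ranged from -0.18 to 0.28 on day 7, -0.12 to 0.34 on day 14 and -0.17 to 0.27 on day 21. On day 28 Plod2 ranged from -0.43 to 0.024, Lox from -0.36 to 0.15 and Loxl2 from -0.023 to 0.94. Per collagen, Lox ranged from -0.054 to 0.37 on day 7 and -0.33 to 0.26 on day 14. Against Col1a1 alone Lox was -0.25 on day 7, and against Col3a1 alone Lox was 0.22 on days 14 and 21 and Loxl2 0.002 on day 21.

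At these depths P4ha3 on days 0 and 28 rests on 0 to 13 counts a library.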
